A study of Homo sapiens with 8 samples.

Results

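The zinc finger genes of human chromosome 19 are here the protein-coding genes of that chromosome whose symbol is ZNF followed by a number and, in some, a letter. They were chosen by symbol and chromosome alone, and 246 of the 19866 protein-coding genes on the primary chromosomes met that rule. The same chromosome holds 1164 other protein-coding genes, and 263 genes with such symbols lie on other chromosomes. The set was proposed with the peak counts at the gene ends and around the genes already known, so those counts are given below as a description, with no test and no p-value.

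ATAC-seq, in which a transposase cuts accessible DNA, was run on H1975 and HCC44, both established human non-small-cell lung cancer cell lines labelled WT. Cells of both lines received either the solvent DMSO or ACBI1 during 96 h. ACBI1 is a degrader that brings the chromatin remodelling proteins SMARCA2, SMARCA4 and PBRM1 to an E3 ubiquitin ligase. The labels give the ACBI1 concentration as 1 mM, and each of the 4 groups has 2 replicates, 8 samples in all. Nothing in the labels says that replicates came from separate cultures, so the spread between them may be technical.

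Most zinc finger proteins of this kind carry a KRAB domain followed by an array of C2H2 fingers that reads DNA. The KRAB domain recruits TRIM28 (KAP1), which brings the histone methyltransferase SETDB1 and HP1 proteins, and the bound site is packed into chromatin marked by H3K9me3. Many of these proteins bind and silence transposable elements, and their genes arose by tandem duplication, so that they stand side by side in clusters on chromosome 19. Promoters of a number of them have been reported as methylated in tumours.

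The promoter sequences of 4 members show the kinds of gene start that the peak lists separated. Each is the 250 bases before the RefSeq start on GRCh38.p14, written 5′ to 3′ along the direction of transcription, and capitals mark the letters CCGGAAG or their reverse complement CTTCCGG, the core that ETS factors bind. ZNF460 (chr19:57279732-57279981, plus strand) had a peak at its ends in all 8 samples. ZNF91 (chr19:23395472-23395721, minus strand), whose protein represses SVA and L1PA retrotransposons, and ZNF154 (chr19:57709205-57709454, minus strand), a gene reported as methylated in many tumour types, had one in every H1975 sample and in no HCC44 sample. ZNF835 (chr19:56671758-56672007, minus strand) had none in any sample and was taken as the member with most CpG dinucleotides among those without a peak.
ZNF460: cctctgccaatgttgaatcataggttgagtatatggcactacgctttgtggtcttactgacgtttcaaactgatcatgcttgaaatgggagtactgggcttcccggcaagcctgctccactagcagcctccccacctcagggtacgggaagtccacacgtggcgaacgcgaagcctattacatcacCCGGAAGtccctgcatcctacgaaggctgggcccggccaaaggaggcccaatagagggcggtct
ZNF91: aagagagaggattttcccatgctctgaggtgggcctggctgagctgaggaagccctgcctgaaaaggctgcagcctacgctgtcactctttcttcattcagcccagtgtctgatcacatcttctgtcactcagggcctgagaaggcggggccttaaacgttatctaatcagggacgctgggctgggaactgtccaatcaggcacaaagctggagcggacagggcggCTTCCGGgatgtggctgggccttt
ZNF154: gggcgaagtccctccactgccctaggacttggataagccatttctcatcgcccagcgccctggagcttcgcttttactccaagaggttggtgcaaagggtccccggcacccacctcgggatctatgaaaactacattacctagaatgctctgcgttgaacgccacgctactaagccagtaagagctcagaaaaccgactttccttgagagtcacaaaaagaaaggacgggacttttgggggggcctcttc
ZNF835: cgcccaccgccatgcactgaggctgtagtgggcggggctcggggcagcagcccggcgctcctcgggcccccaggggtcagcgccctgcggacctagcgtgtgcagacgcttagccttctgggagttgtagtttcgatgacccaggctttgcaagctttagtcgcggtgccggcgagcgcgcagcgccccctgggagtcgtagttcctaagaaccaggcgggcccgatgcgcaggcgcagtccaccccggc
CpG dinucleotides numbered 12 in the ZNF460 stretch, 7 in that of ZNF91, 11 in that of ZNF154 and 25 in that of ZNF835.

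The deposited lists held between 22133 and 50347 peaks per sample, and the read depth behind them is not known. Both HCC44 DMSO lists (50347 and 49945 peaks) were longer than both H1975 DMSO lists (43525 and 41027), and the ACBI1 lists were shorter in both lines, 22133 to 27682 peaks. Among 5 epithelial markers, 4 had a peak at a gene end in all 8 samples and CDH1 in 7 of 8. Of 3 lung lineage markers, NAPSA had one in all 8, NKX2-1 in 4 of 4 H1975 and 1 of 4 HCC44 samples, and SFTPB only in the HCC44 DMSO samples. Of 4 markers of other cell types, PTPRC and PECAM1 had none in any sample, CD3E had one in 3 samples and COL1A1 in all 8. SMARCA2, SMARCA4 and PBRM1 had an end peak in all 8 samples, which says nothing of their protein. A missing peak means that the authors' caller listed none there, not that the chromatin was closed.

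The 2 lines differed in how many zinc finger genes had a peak at a gene end, that is within 1 kb of either end of the gene. In H1975, 210 and 209 of the 246 genes had an end peak with DMSO, and 209 and 208 with ACBI1. In HCC44, the numbers were 94 and 92 with DMSO, and 97 and 93 with ACBI1. Every H1975 sample was above every HCC44 sample by more than 100 genes.

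As shares of the members with DMSO, these were 85.2% ± 0.287 (SD, n = 2) in H1975 and 37.8% ± 0.575 (SD, n = 2) in HCC44, a difference of -47.4 percentage points. The other genes of chromosome 19 had an end peak in 63.7% ± 0.304 (SD, n = 2) of cases in H1975 and in 61.7% ± 0.911 (SD, n = 2) in HCC44. Zinc finger genes on other chromosomes stood at 81.2% ± 0.269 (SD, n = 2) and 75.5% ± 0.269 (SD, n = 2). The members were thus above the other chromosome 19 genes in all 4 H1975 samples and below them in all 4 HCC44 samples.

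**Figure D1:**
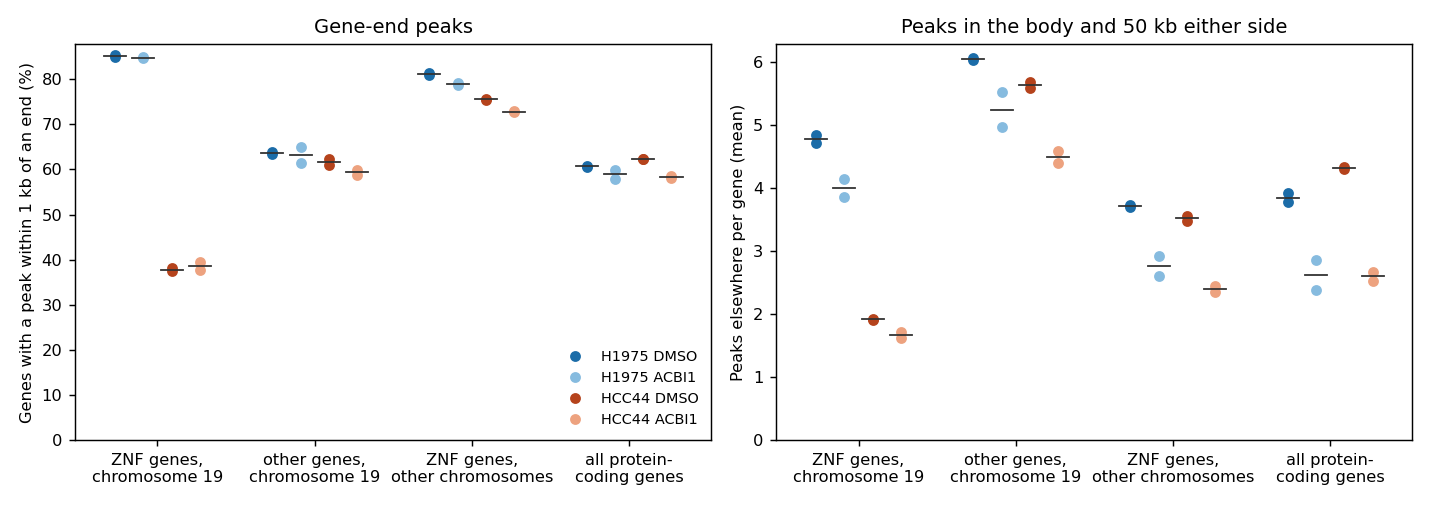
Left, share of genes (%) with a listed peak within 1 kb of either end, in each of the 8 samples, for the 246 zinc finger genes of chromosome 19 and 3 comparison sets. Right, mean number of peaks per gene in the gene body and 50 kb either side, away from that gene's own ends. Points are samples and lines are means of 2 replicates. The zinc finger genes of chromosome 19 sit near 85.2% in H1975 and 37.8% in HCC44 with DMSO, while the other genes of the chromosome sit at 63.7% and 61.7%.

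Gene by gene, 110 of the 246 members (44.7%) had an end peak in all 4 H1975 samples and in none of the 4 HCC44 samples, where 1.99% of all protein-coding genes did. The reverse pattern, all 4 HCC44 samples and no H1975 sample, was found in 0 members, beside 1.54% of all protein-coding genes. An end peak in all 8 samples was listed for 86 members (35.0%), beside 53.1% of all protein-coding genes. No end peak in any sample was listed for 34 members (13.8%), beside 32.5% of all protein-coding genes, and 16 (6.50%) had another pattern, beside 10.9%. These shares follow from the contrast that the set was proposed with and carry no weight beyond description.

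The members make up 1.24% of protein-coding genes and 27.8% of the 395 genes with the H1975-only pattern. That pattern was seen in 43 of the 1164 other chromosome 19 genes (3.69%) and in 17 of the 263 zinc finger genes elsewhere (6.46%). Of the 91 members with an end peak in both HCC44 DMSO samples, 89 (97.8%) also had one in both H1975 DMSO samples, whereas these 89 were 42.6% of the 209 held in H1975. Peaks at zinc finger gene ends in HCC44 were in this sense nearly a subset of those in H1975. For the other chromosome 19 genes the shared 654 were 93.0% of the HCC44 genes and 90.1% of the H1975 genes. The shared 193 zinc finger genes on other chromosomes were 98.0% and 90.6%, and over all protein-coding genes it was 92.3% and 94.4%. The members thus differed from these sets in the share of H1975 genes, while their share of HCC44 genes was like that of zinc finger genes elsewhere.

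Among the 16 members with another pattern, ZNF792 came nearest to the reverse pattern, with an end peak in 1 of 4 H1975 samples and 4 of 4 HCC44 samples. Just outside the H1975-only pattern lay ZNF675, ZNF565, ZNF229 and ZNF587B, each with 4 of 4 H1975 samples and 1 of 4 HCC44 samples. ZNF675 had a -log10 q of 216 and 285 in the H1975 DMSO samples and 13.4 in the single HCC44 list that held a peak there. ZNF559 and ZNF491 had 4 of 4 and 2 of 4, and ZNF225 had 3 of 4 and 0 of 4.

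**Figure D2:**
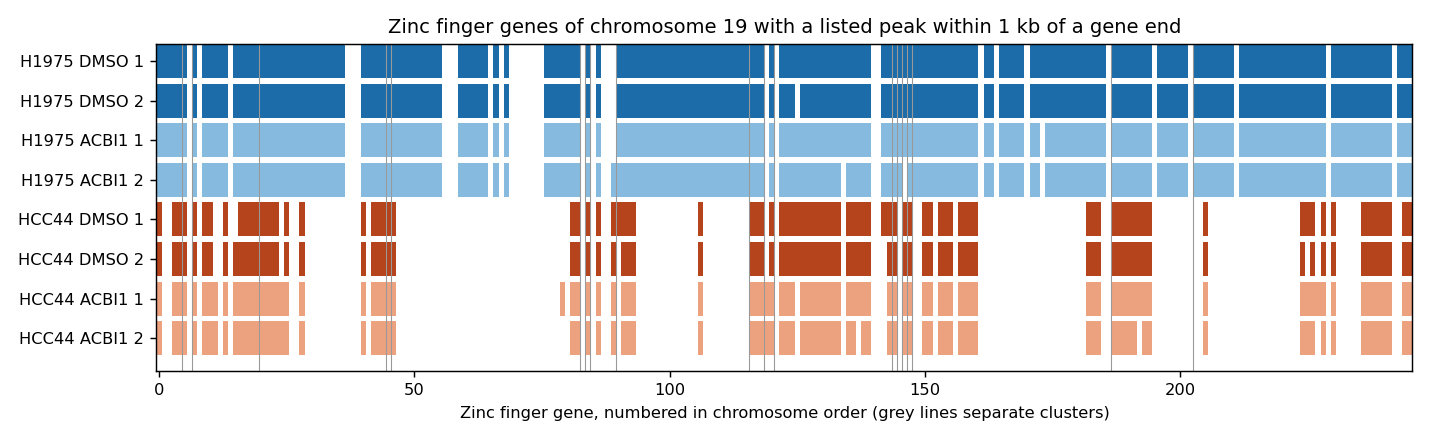
Each column is 1 of the 246 zinc finger genes in chromosome order and each row is 1 of the 8 samples. A filled cell marks a listed peak within 1 kb of either gene end, and grey lines separate clusters of genes with gaps of at most 500 kb. The rows of H1975 are filled for 208 to 210 genes and those of HCC44 for 92 to 97, and the empty HCC44 columns lie in long runs.

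The genes fell into 20 clusters when neighbours within 500 kb were joined, and the 10 clusters of at least 5 members held 232 of the 246. The H1975-only pattern was uneven among them. The 4 largest clusters held 89 of the 110 H1975-only genes and 145 of the 246 members.

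The cluster from ZNF565 to ZNF573 in 19q13 (chr19:36182060-37779586) had 26 members, of which 26 had an end peak in all 4 H1975 samples and 4 in all 4 HCC44 samples. In the pericentromeric cluster from ZNF101 to ZNF254 (chr19:19668153-24129968), 25 of 37 members had one in all H1975 samples and 3 in all HCC44 samples. The cluster from ZNF175 to ZNF331 (chr19:51571283-53580269) had 34 and 12 of 39. Near the end of the long arm, from ZNF264 to ZNF446 (chr19:57191500-58489533), the numbers were 40 and 13 of 43.

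The cluster from ZNF575 to ZNF180 (chr19:43530835-44500522) did not show this split. Of its 23 members, 18 had an end peak in all H1975 samples and 16 in all HCC44 samples, and 0 were H1975-only. ZNF225 (3 of 4 H1975 and 0 of 4 HCC44 samples) and ZNF229 (4 of 4 and 1 of 4) missed that pattern by 1 sample each. ZNF45, ZNF221, ZNF155, ZNF230, ZNF222, ZNF223, ZNF284 and ZNF224 follow each other there, all with end peaks in all 8 samples. In the cluster from ZNF302 to ZNF792, HCC44 had more: 2 of 5 members against 1 of 5. The difference is ZNF792, whose HCC44 peaks had a -log10 q of only 11.8 and 11.6 with DMSO, and of 24.9 and 18.8 with ACBI1. A difference between clusters was not tested, and copy number and DNA methylation were not analysed here.

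**Figure D3:**
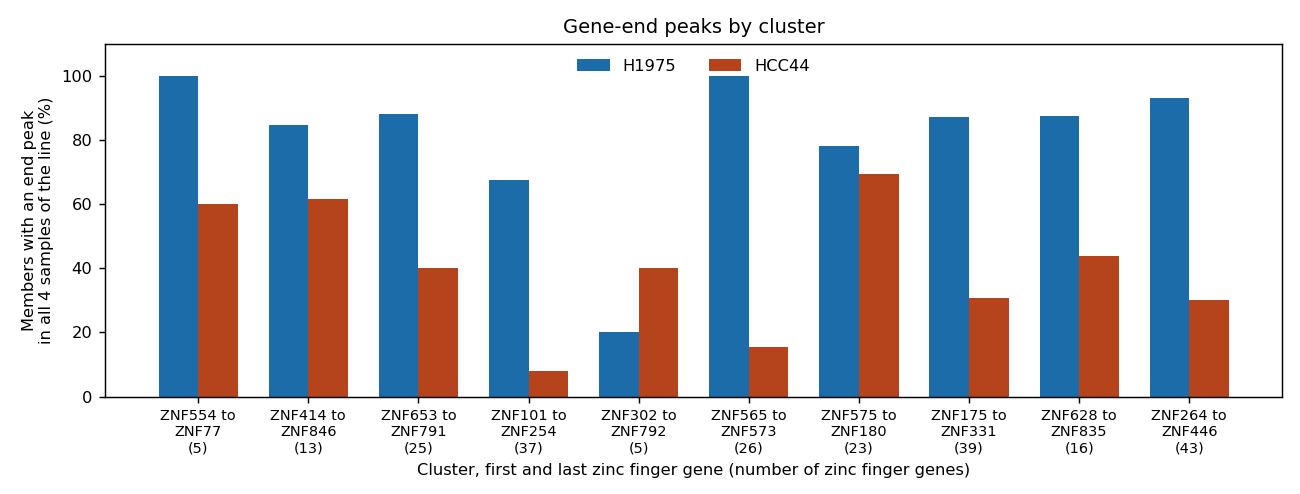
Bars give, for the 10 clusters with at least 5 zinc finger genes, the share of members (%) with an end peak in all 4 samples of H1975 or of HCC44. Clusters are in chromosome order, labelled by their first and last zinc finger gene with the number of members in brackets. In the cluster from ZNF565 to ZNF573 all 26 members were held in H1975 and 4 in HCC44, while in that from ZNF575 to ZNF180 it was 18 and 16 of 23.

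Neighbouring genes often had the same pattern. Of 153 pairs of adjacent members of a cluster in which both had either an end peak in all 8 samples or the H1975-only pattern, 127 had the same pattern. No share for members paired without regard to position was computed, so the 127 is a description only. The longest run of H1975-only genes was 12, from ZNF529 to ZNF585B (chr19:36543613-37210536). Some neighbours start close together and can share a peak: 66 members had an end within 2 kb of an end of another gene. ZNF529 and ZNF382 are such a pair, with the same peak at -log10 q of 96.6 and 87.6 in the H1975 DMSO samples. Among the 180 members without such a neighbour, 151 had an end peak in all H1975 samples, 66 in all HCC44 samples, and 79 were H1975-only.

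Genes outside the set that lie inside the zinc finger clusters were split between the lines as well. Of 100 such genes, 16 (16%) were H1975-only, against 27 of the 1064 other chromosome 19 genes outside the clusters (2.54%). With DMSO, 49.5% ± 0.707 (SD, n = 2) of those inside had an end peak in H1975 and 30.5% ± 0.707 (SD, n = 2) in HCC44. Some of the 100 may share an end peak with a member, and they were not recounted without shared ends. Of the 100, 12 are zinc finger genes with other symbols (ZFP, ZSCAN, ZIM, ZIK and ZBTB names), and without them 10 of 88 (11.4%) were H1975-only. The chromosome holds 18 such genes in all, of which 7 were H1975-only and 5 had an end peak in all 8 samples. The 97 genes of other tandem families of the chromosome, such as olfactory receptors, KIR, LILR and kallikrein genes, had 2 H1975-only and 73 without any end peak. Of these, 17 are KIR and LILR genes in a stretch where no list used here held any peak, and without them 56 had no end peak.

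The peaks lay at the gene starts. Strand was known for 216 members, and 184 of them had a peak within 1 kb of the start in each of the 4 H1975 samples. In HCC44 it was 81 and 80 with DMSO and 84 and 80 with ACBI1. At the far end, a peak was listed for 12 to 15 of these genes in H1975 and 6 to 8 in HCC44. The far ends of the other chromosome 19 genes had a peak in 16.7% to 21.1% of cases, against 2.78% to 6.94% for the members.

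**Figure D4:**
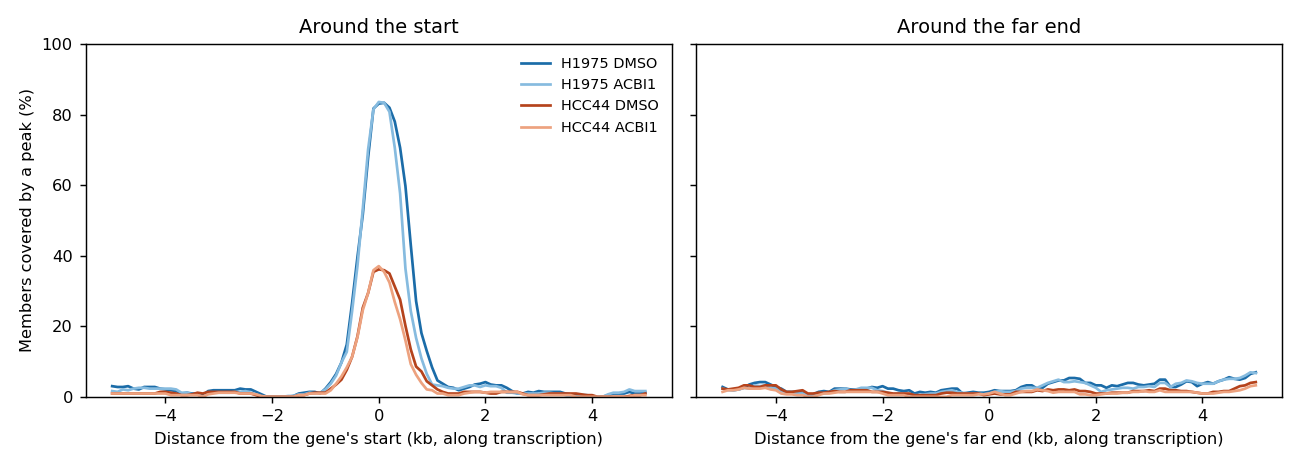
Share of the 216 zinc finger genes with known strand (%) that a listed peak covered at each distance from the gene's start (left) and far end (right), in kb along the direction of transcription. Lines are means of the 2 replicates of each group. At the start, 82.9% and 83.3% of genes were covered in the H1975 DMSO samples and 36.1% in each HCC44 DMSO sample, and cover at the far end stayed low in all groups.

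Against the listed promoters themselves, 250 bases before to 50 after a start, the split was alike. A peak overlapped the promoter of 203 and 203 members with DMSO and 202 and 204 with ACBI1 in H1975, and of 95 and 93, then 97 and 94, in HCC44. By promoter, 105 of 216 members were H1975-only, 0 were HCC44-only, 91 had a peak in all 8 samples and 12 in none. Promoter patterns were counted for members only, so no share over all protein-coding genes can be set beside them. Of the 34 members without an end peak, 26 had a listed promoter, and for 8 of these the promoter lay under an internal peak in all 8 samples and for 5 in H1975 alone. ZNF331, an imprinted gene that is reported as silenced in tumours, is an example: it had no end peak, but of its 6 listed promoters a peak overlapped 5, 4, 4 and 3 in the H1975 samples and 0 in each HCC44 sample. A gene end without a peak is therefore not always a promoter without one.

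Of the 34, 12 had no peak anywhere inside the gene in any sample. These were ZNF66, ZNF85, ZNF430, ZNF100, ZNF208, ZNF676, ZNF729, ZNF98, ZNF492, ZNF99, ZNF723 and ZNF835, and 11 of them stand in the pericentromeric cluster. Of these, 7 (ZNF85, ZNF430, ZNF100, ZNF676, ZNF729, ZNF98 and ZNF492) lie in stretches of over 180 kb in which no list held any peak. Whether reads map uniquely there was not tested.

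End peaks of zinc finger genes ranked above the middle of their lists. The authors' -log10 q of the strongest end peak had a median percentile of 94.2 and 94.0 among all peaks of the H1975 DMSO lists and 83.6 and 86.9 in the HCC44 DMSO lists. For the other chromosome 19 genes it was 76.5 and 77.7, then 76.2 and 77.3, and for zinc finger genes on other chromosomes 85.2 and 84.4, then 81.6 and 81.9. With ACBI1 the members' medians were 91.3 and 86.5 in H1975 and 77.8 and 78.2 in HCC44, where the zinc finger genes on other chromosomes stood at 80.5 and 78.3. In fold enrichment over background, also the authors' value, the members' median percentile reached 69.0 and 70.3 for H1975 with DMSO, and 77.5 and 73.8 for HCC44. For the other chromosome 19 genes it was 36.0 and 37.6, then 30.9 and 30.8. For zinc finger genes on other chromosomes it was 67.9 and 73.7, near the members in H1975, then 61.7 and 57.6. The median widths with DMSO were 1060 and 990 bp for members and 1087 and 997 bp for others in H1975, and 931 and 952 bp against 1116 and 1100 bp in HCC44.

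The end peaks of H1975-only members ranked near those of members with end peaks in all 8 samples. With DMSO their median -log10 q percentile in H1975 was 95.5 and 95.3, beside 94.1 and 93.8, and with ACBI1 the order turned, at 91.0 and 85.3 beside 92.5 and 89.3. Over the 8 samples, the members with the highest mean rank of -log10 q were ZNF414, ZNF497, ZNF460, ZNF837 and ZNF564. All 5 had an end peak in every sample. ZNF460, for instance, had a -log10 q of 229.9 and 199 with DMSO in H1975, and 106 and 81.1 in HCC44.

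Several members with known roles were among the H1975-only genes. ZNF91 had a -log10 q of 198 and 175 with DMSO and 198 and 198 with ACBI1 in H1975, and no end peak in HCC44. ZNF93, which binds L1PA retrotransposons, had 167 and 137, then 209 and 104, in H1975 and likewise none in HCC44. Both genes of this pair were thus H1975-only, beside 44.7% of all members and 21 of the 37 members of their pericentromeric cluster. The pair was chosen with earlier results of these data known and is a description only.

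All 10 of 10 zinc finger genes listed as reported methylated in tumours (ZNF132, ZNF154, ZNF177, ZNF382, ZNF418, ZNF471, ZNF582, ZNF667, ZNF671 and ZNF677) were H1975-only, beside 44.7% of all members. Their end peaks covered a wide range of strength. In the H1975 DMSO samples ZNF582 stood at 218 and 228 on the -log10 q scale, ZNF154 at 37.1 and 32.4, and ZNF177 at 12.8 and 15.2. The list was put together with these data known, and methylation was not measured here.

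ZNF274, which binds the 3′ ends of zinc finger genes and recruits SETDB1 there, ZNF653 and ZNF146 had end peaks in all 8 samples. ZNF274 had a -log10 q of 262 and 239.6 with DMSO in H1975, and 115 and 103 in HCC44. The list of 19 partners through which KRAB zinc finger proteins act had 15 genes with an end peak in all 8 samples, beside 53.1% of all protein-coding genes. It had 0 H1975-only genes, beside 1.99% of all protein-coding genes, and a list of 19 cannot tell 0 from that share. SETDB1, CBX1, CBX3 and CBX5 (the HP1 proteins), MORC2, and the HUSH complex genes TASOR, MPHOSPH8 and PPHLN1 were among the 15. TRIM28, DAXX and UHRF1 had no listed end peak in any sample, and CHD3 had one in the 4 H1975 samples and 1 of 4 HCC44 samples. The lists used here may be incomplete, and whether they are at TRIM28, DAXX and UHRF1 was not tested. None of this says how much protein the cells held.

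The members' promoters were compared by sequence, as a description. RefSeq promoters of 300 bases were listed for 216 of 246 members and for 15843 protein-coding genes. The median GC content was 59.8% in members and 62.7% in all, and the median CpG count 20 and 22. Within the members, GC content was 61.7% and the CpG count 22 for genes with end peaks in all 8 samples, 59.0% and 20 for H1975-only genes, and 58.0% and 17 for genes with none. The interquartile ranges of the CpG counts overlapped widely, 17 to 26.3 in the genes with end peaks in all samples and 14 to 26.3 in the H1975-only genes.

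Of 8 motifs searched on both strands, the ETS core CCGGAAG differed most, in percentage points, from all promoters. It was found in 98 of 216 members (45.4%), against 14.2% of all promoters, 126 of 969 promoters of other chromosome 19 genes and 34.1% of promoters of zinc finger genes on other chromosomes. Among members it was held by 30 of 76 genes with end peaks in all 8 samples (39.5%), 51 of 100 H1975-only genes and 13 of 26 genes without end peaks. CCAAT, the NF-Y core, was in 53.7% of members and 36.4% of all promoters, and TATAAA in 1.85% and 9.63%. GGGCGG (the GC box, 67.6% and 58.5%), TGANTCA (AP-1, 6.48% and 5.75%), the CRE TGACGTCA (3.24% and 2.59%), CACGTG (the E-box, 4.17% and 8.88%) and the ZNF143 core ACTACAATT (1.39% and 0.461%) were also counted. Of the printed promoters, ZNF460 and ZNF91 hold 1 ETS core each, and ZNF154 and ZNF835 hold none within the bases shown. A match is a run of letters, and binding was not measured.

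The second comparison was ACBI1 against DMSO within each line. In the lists as deposited, the shares at the ends of zinc finger genes moved by under 1 percentage point. In H1975 the share with an end peak was 85.4% and 85.0% with DMSO and 85.0% and 84.6% with ACBI1, a change of -0.41 percentage points beside a pooled replicate SD of 0.287. In HCC44 it was 38.2% and 37.4%, then 39.4% and 37.8%, a change of 0.81 points beside an SD of 0.909. The H1975 groups touch at 85.0%, and the HCC44 groups overlap. With lists of equal length the changes were 3.86 and 8.33 points, and with a -log10 q of at least 20 they were -1.42 and -0.61 points, so neither their direction nor their size held across settings.

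Of the 209 members with an end peak in both H1975 DMSO samples, 206 (98.6%) had one in both ACBI1 samples, beside 95.2% of all protein-coding genes. In HCC44 it was 88 of 91 (96.7%), beside 91.9% of all protein-coding genes. The other chromosome 19 genes kept 95.5% and 92.7%. Zinc finger genes on other chromosomes kept 96.7% and 97.0%, so in HCC44 the members' share was not above theirs. ZNF320 was the single member that lost its end peak in both H1975 ACBI1 samples, from a -log10 q of 63.9 and 41.0 with DMSO. ZNF404 was the single loss in HCC44, from 31.4 and 31.0. ZNF559, ZNF491 and ZNF574 had no end peak in the HCC44 DMSO samples and one in both ACBI1 samples. The gained peaks were weak, with a -log10 q of 14.1 and 11.4, 19.7 and 15.8, and 18.2 and 18.5. All lay below the alternative threshold of 20. These genes were 3 of the 151 members without an end peak in either HCC44 DMSO sample, beside 0.946% of such protein-coding genes. In H1975, 0 of 36 gained one, beside 0.693%.

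Away from the gene's own ends the counts were lower with ACBI1. Peaks elsewhere, in the gene body and 50 kb either side, numbered 4.85 and 4.72 per member in the H1975 DMSO samples and 4.14 and 3.86 with ACBI1. In HCC44 they numbered 1.92 and 1.91, then 1.72 and 1.63. All ACBI1 samples were below all DMSO samples of their line. The log2 change was -0.26 (pooled replicate SD 0.055, n = 2 per group) in H1975 and -0.20 (SD 0.039) in HCC44, while over all protein-coding genes it was -0.56 and -0.73. The other genes of chromosome 19 changed by -0.21 (SD 0.077) and -0.33 (SD 0.034). The ACBI1 lists were shorter as wholes, and with lists brought to equal length by -log10 q the members' change turned to 0.0687 in H1975 and 0.35 in HCC44.

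Of 238 members with any such peak in H1975, 94 (39.5%) had fewer in both ACBI1 samples than in either DMSO sample, beside 50.6% of all protein-coding genes, and 4 had more, beside 1.62%. In HCC44, 40 of 150 (26.7%) had fewer, beside 62.8% of all protein-coding genes, and 5 had more, beside 2.12%. A gene with few peaks can less easily meet the rule for fewer. Over all genes, those without such a peak included, the median count elsewhere in each HCC44 DMSO sample was 1 for members and 4 for all protein-coding genes. In each H1975 DMSO sample it was 5 and 3. The HCC44 DMSO samples had 102 and 103 of the 246 members without such a peak, so the 1 is not the median of the 150. In 12 of the 148 members with such peaks in both lines the count was lower in both, beside 40.8% of all protein-coding genes and 21.7% of the other chromosome 19 genes. Among the other chromosome 19 genes, 33.0% had fewer in H1975 and 44.4% in HCC44, so the members' share was above theirs in H1975 and below in HCC44. Zinc finger genes on other chromosomes had fewer in 45.9% and 52.4% of cases. With lists of equal length the members' counts of 94 and 40 became 33 and 5, and with 20 kb either side 59 and 21.

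The largest falls were at ZNF254, with 8 and 6 peaks elsewhere in H1975 with DMSO and 5 and 2 with ACBI1, and 6 and 6, then 2 and 2, in HCC44. Its neighbour ZNF726 had 4 and 4, then 2 and 1, in H1975 and, in HCC44, 3 and 3, then 1 and 0. Both kept their end peaks in all 8 samples. ZNF681, from the same cluster, had 7 and 7, then 3 and 1, in H1975 and no such peak in HCC44. ZNF792 went from 5 and 5 to 3 and 3 in H1975 and from 7 and 7 to 4 and 3 in HCC44. ZNF91 had 11 and 10, then 8 and 5, in H1975, and 0 in all HCC44 samples.

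At the far end of 19q, ZNF264 had 6 and 6, then 2 and 2, and ZNF805 had 8 and 7, then 3 and 3, in H1975, and their windows overlap. In HCC44 ZNF264 had 1 and 0, then 0 and 0, and ZNF805 had 2 and 1 under both treatments. ZNF526 completed the 8 with the largest mean fall, from 7 and 9 to 5 and 6 in H1975 and from 8 and 8 to 6 and 6 in HCC44. More peaks elsewhere in both ACBI1 samples were listed for ZNF823, ZNF136, ZNF791 and ZNF625 in H1975 and for ZNF699, ZNF177, ZNF441, ZNF440 and ZNF780A in HCC44, a difference of 1 or 2 peaks each. ZNF780A lies outside the limit of 8 and was added after its values were seen. All but ZNF699, ZNF177 and ZNF780A lie in the cluster from ZNF653 to ZNF791.

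The surroundings are described next by the members' end-peak pattern. The pattern was defined on the same lists, and a window can hold the end peaks of neighbours with the same pattern, so the values are no separate evidence. Members with the H1975-only pattern had a mean of 4.95 and 4.83 peaks elsewhere in the H1975 DMSO samples and of 0.564 and 0.536 in the HCC44 DMSO samples. In the latter, 77 and 78 of the 110 genes had no peak elsewhere at all. Counting only distal peaks, over 1 kb from any protein-coding gene end, the H1975-only members had 2.95 and 2.83 with DMSO in H1975 and 0.2 and 0.173 for HCC44. Members with end peaks in all 8 samples had 2.65 and 2.52, against 1.5 and 1.47, distal peaks. Of all peaks elsewhere they had 5.15 and 5 in the H1975 samples, against 3.47 and 3.44 for HCC44. In the cluster from ZNF175 to ZNF331 the mean per member amounted to 6.05 and 5.82 for H1975, against 0.769 and 0.795 for HCC44, while in that from ZNF575 to ZNF180 it was 3.78 and 4 against 3.57 and 3.48. Windows of neighbours overlap, so these means count some peaks more than once.

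Counting each peak once, the windows of the 246 genes together span 15.5 Mb. They held 624 and 610 peaks in H1975 with DMSO and 276 and 273 in HCC44. Of these, 345 and 331 in H1975 and 125 and 121 in HCC44 were distal, that is over 1 kb from any protein-coding gene end. With DMSO the distal density was 21.8 ± 0.640 (SD, n = 2) peaks per Mb in H1975 and 7.95 ± 0.183 (SD, n = 2) in HCC44. The windows of the other chromosome 19 genes, 35.2 Mb outside the former, had 29.3 ± 0.502 (SD, n = 2) and 27.9 ± 0.723 (SD, n = 2).

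With ACBI1 the distal peaks around zinc finger genes numbered 256 and 213 in H1975 and 89 and 82 in HCC44. That is a log2 change of -0.53 (SD 0.14) and -0.53 (SD 0.064), beside -0.42 (SD 0.14) and -0.61 (SD 0.076) in the windows of the other genes. Peaks at the members' ends numbered 212 and 212, then 210 and 208, in H1975, and 93 and 94, then 98 and 95, in HCC44. As merged regions, 88 of 306 distal regions held by both H1975 DMSO samples (28.8%) were in neither ACBI1 sample, against 4 of 212 regions at member ends. In HCC44 it was 38 of 116 (32.8%), against 1 of 90. Distal regions of the other windows were lost in 30.3% and 42.3% of cases. The ACBI1 lists were shorter as wholes, and distal peaks and regions were not counted with lists of equal length.

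**Figure D5:**
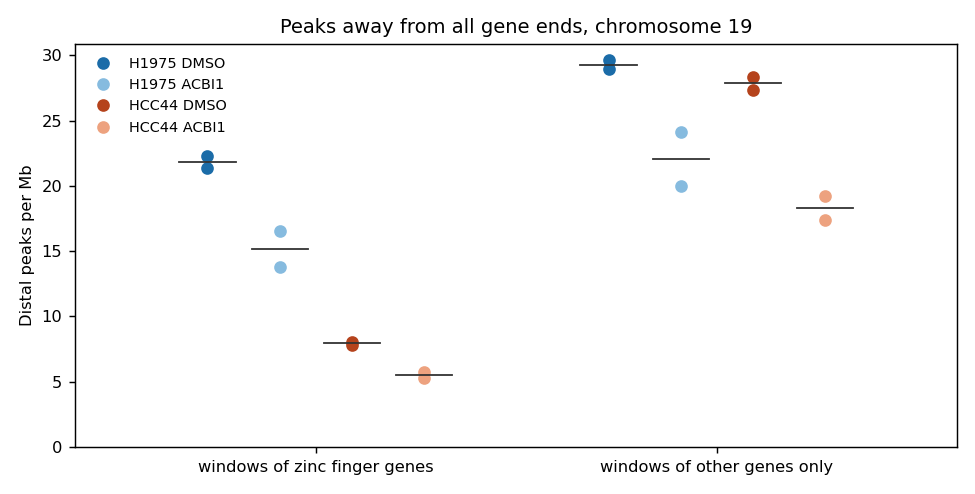
Distal peaks per Mb, over 1 kb from any protein-coding gene end, in the windows of the zinc finger genes (gene and 50 kb either side) and in the remaining windows of other chromosome 19 genes. Points are samples and lines are means of 2 replicates. With DMSO the zinc finger windows held 21.8 distal peaks per Mb in H1975 and 7.95 in HCC44, and the other windows 29.3 and 27.9. Each was lower with ACBI1, where the lists were shorter as wholes.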

How the data were processed

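ATAC-seq was measured in 8 samples of 2 cell lines, 4 groups of 2. The submitters' processing notes name BWA and hg38. The peak caller and read depth are not given in the sources used here. The authors deposited 1 peak list per sample (not pooled by group), with a fold enrichment (a ratio over background) and a -log10 q per peak. In every list the lowest -log10 q was 10 to 10.2.

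Gene positions and promoters came from RefSeq GRCh38.p14. Only genes on primary chromosome sequences were kept. A peak overlapping the 1 kb on either side of a gene end by 1 bp was an end peak. Other peaks in the gene and 50 kb either side were counted as elsewhere. A gene was counted as having fewer peaks when both ACBI1 samples were below both DMSO samples. The members and lists were chosen with earlier results of these data known, and so were the named genes' rules: members losing or gaining an end peak, the 8 largest falls and up to 8 rises elsewhere, the 5 strongest end peaks, and genes of known role. Genes are not replicates, and no test was made. Counting was tested on simulated data. Alternatives were a -log10 q of at least 20, equal list lengths, joining of peaks within 1200 bp, a 5 kb end window, 20 kb flanks, start or promoter only, and leaving out replicates. Exon annotation, planned protein features, RNA and copy number were not analysed here. Python 3.11.15, pandas 2.3.3 and numpy 2.4.6 were used.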

Additional observations from a re-analysis of the deposited data

How the results depend on the processing

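Of 75 values under other settings for 14 results, 33 moved by less than the replicate SD (counts: by less than 1.5 times). With 1 replicate left out the HCC44 end-peak change ran from 0 to 1.63 points, the H1975 one from -0.61 to -0.20, and the counts with fewer peaks from 99 to 119 and from 40 to 48. With 2 replicates the changes in points cannot move by more than the SD, so they say nothing of stability. The counts with fewer peaks have no SD, and they can only stay or rise when a sample is left out, since the rule then compares fewer samples. The number of H1975-only genes was 110 in the main count, 79 without genes sharing an end, 99 to 113 under the remaining settings, and 110 to 112 with 1 replicate left out.

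With equal list lengths by -log10 q, the change in members with an end peak became 3.86 points (H1975) and 8.33 (HCC44), and the log2 change elsewhere 0.0687 and 0.35. The counts with fewer peaks became 33 and 5. The log2 ratio of elsewhere peaks, members over others with DMSO, became 0.0551 and -1.14, and the members' log2 change minus the others' became -0.36 and -0.11. Members minus others at gene ends became 28.3 and -16.5 points, and HCC44 minus H1975 became -50.8. This setting takes peaks away from the longer DMSO lists.

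With a -log10 q of at least 20, the log2 change elsewhere stayed at -0.27 and -0.22, while the end-peak change was -1.42 and -0.61 points, members minus others 23.5 and -20.1 points, the ratio -0.23 and -1.41, the difference of log2 changes -0.0122 and 0.32, and HCC44 minus H1975 -49.0 points. With 20 kb flanks, the log2 change was -0.33 in H1975, the counts 59 and 21, the ratio -0.43 and -1.79, and the difference -0.10 and 0.15. A 5 kb end window gave members minus others of 10.3 and -34.2 points and, in HCC44, a ratio of -1.53 and a difference of 0.14. Joining peaks gave, in HCC44, -1.54 and 0.12. Starts alone gave a change of 0 points in H1975 and HCC44 minus H1975 of -47.9, and promoters -50.5. Leaving out genes of peakless stretches gave 19.0 and -26.3 points and ratios of -0.39 and -1.61. That setting, promoters, and every value of HCC44 minus H1975 or of H1975-only genes were chosen after seeing the data. The causes were not tested. Merging regions within 1200 bp gave 27.8% and 32.8% of distal regions lost.

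No paired analysis was possible because no result comes from a test. With 2 replicates per group, unknown depth and lists cut at a threshold, small differences cannot be resolved.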

Other observations

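On chromosome 19 no list held a peak from 54137706 to 55086822 (949117 bp, GRCh38.p14), a stretch with 36 protein-coding genes and no zinc finger gene of the set. The lists used here may be incomplete there, so the gap is not read as a measurement of these cells.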
